A study of Mus musculus with 3 samples.

Results

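The Ms4a cluster of mouse chromosome 19 was described through 9 genes, Ms4a1, Ms4a4a, Ms4a4b, Ms4a4c, Ms4a4d, Ms4a6b, Ms4a6c, Ms4a6d and Ms4a7. They were taken by symbol from 55536 annotated genes, of which 22028 were protein-coding and 19 carried an Ms4a symbol. The members were chosen by symbol with their TPM and expected counts in the same libraries known, so their levels are given as a description. The cells were macrophages derived from bone marrow (strain C57BL/6J), phagocytes grown in culture from marrow precursors. They form 1 group of 3 libraries, replicates 1, 2 and 3. Cells had received lipid A (the Toll-like receptor 4 ligand within bacterial lipopolysaccharide) at 100 ng/ml for 12 h, were left for 12 h after washout, and met lipid A at 100 ng/ml again for 480 min. The treatment fields of the labels name lipoprotein A, and the written description is followed here. Polyadenylated RNA was sequenced, and no untreated library was analysed here. The labels number the libraries as biological replicates 1, 2 and 3. These replicates share 1 donor record, and nothing in the labels ties them to separate animals, so their spread may still be technical. No p-value given here can be read as a measure of spread between animals.

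MS4A proteins are small membrane proteins that cross the membrane several times and are related to CD20, the B cell surface protein encoded by Ms4a1. Several sit in complexes with immune receptors and alter how these signal, as Ms4a2 does as the beta chain of the high-affinity IgE receptor. Different members mark different blood cells. Ms4a7 and Ms4a4a are used as markers of macrophages, Ms4a4c and Ms4a6c are prominent in mouse monocytes, and Ms4a4b and Ms4a6b were studied in mouse T cells. The mouse genome holds several close copies that arose by duplication within the Ms4a4 and Ms4a6 groups.

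All 19 Ms4a genes lay within 678.559 kb of chromosome 19 (mm10, 10962293 to 11640851), and the 9 members within 355.175 kb of that stretch (11249675 to 11604849). Ms4a1, Ms4a7 and Ms4a6d were annotated on the minus strand and the other 6 members on the plus strand. Along the chromosome the members ran Ms4a1, Ms4a7, Ms4a4a, Ms4a4c, Ms4a4b, Ms4a6c, Ms4a6b, Ms4a4d and Ms4a6d, with Ms4a5 and Ms4a14 between Ms4a1 and Ms4a7.

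Close copies matter for the values because a read from an identical stretch cannot be placed by its sequence. The longest stretch shared by the full-length transcripts of Ms4a4c and Ms4a4b is shown because it joins the most abundant member to a scarce one. It is 127 coding bases long, spans exons 5 and 6, and is the same in Ms4a4c-201 (chr19:11419001-11421266, plus strand) and Ms4a4b-201 (chr19:11459161-11461265, plus strand). The best match without gaps differed at 51 bases in Ms4a4d-201 (chr19:11554812-11556203, plus strand) and at 69 bases in Ms4a4a-201 (chr19:11388239-11388365, plus strand). Capitals mark bases that differ from Ms4a4c-201, and coordinates that span 2 exons include the intron between them.
Ms4a4c-201: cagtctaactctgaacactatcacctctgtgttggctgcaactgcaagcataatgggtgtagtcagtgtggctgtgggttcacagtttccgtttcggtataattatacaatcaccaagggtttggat
Ms4a4b-201: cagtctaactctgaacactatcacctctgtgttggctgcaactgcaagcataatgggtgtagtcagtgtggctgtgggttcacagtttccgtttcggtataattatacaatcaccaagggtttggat
Ms4a4d-201: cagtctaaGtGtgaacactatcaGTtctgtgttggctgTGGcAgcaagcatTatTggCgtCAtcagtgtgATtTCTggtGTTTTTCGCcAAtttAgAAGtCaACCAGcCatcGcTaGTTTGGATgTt
Ms4a4a-201: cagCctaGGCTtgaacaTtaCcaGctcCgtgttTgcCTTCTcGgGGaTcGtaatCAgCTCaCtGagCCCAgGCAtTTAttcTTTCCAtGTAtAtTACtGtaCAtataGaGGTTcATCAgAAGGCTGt

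In the Ms4a6 group, the longest stretch shared by the full-length transcripts of Ms4a6d and Ms4a6b is 81 coding bases long over exons 2 and 3, and is shown because both copies were abundant. It is identical in Ms4a6d-201 (chr19:11601932-11603193, minus strand) and Ms4a6b-201 (chr19:11520438-11521703, plus strand). Ms4a6c-201 (chr19:11471204-11472425, plus strand) differed at 4 bases, in capitals.
Ms4a6d-201: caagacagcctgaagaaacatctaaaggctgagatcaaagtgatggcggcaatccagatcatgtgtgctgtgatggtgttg
Ms4a6b-201: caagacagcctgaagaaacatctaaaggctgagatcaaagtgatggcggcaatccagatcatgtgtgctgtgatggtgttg
Ms4a6c-201: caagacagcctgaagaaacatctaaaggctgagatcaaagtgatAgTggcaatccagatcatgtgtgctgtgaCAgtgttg

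Over all annotated transcripts, 21.9% of the distinct 31-base words of Ms4a6c also occurred in another gene, with 13.9% shared with Ms4a6b. For Ms4a4c the share was 17.1%, with 13.0% shared with Ms4a4b. It was 8.11% for Ms4a6d, 7.84% for Ms4a6b, 5.20% for Ms4a4b, 3.44% for Ms4a4d, 2.16% for Ms4a1 and 1.22% for Ms4a7. Ms4a4a shared none.

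Each library was quantified by the authors in 2 ways, called here the first quantification (genes and transcripts, from alignments to the transcriptome) and the second quantification (transcripts, from the reads and an index, summed to genes here). Levels are in TPM, a transcript abundance per length that sums to the same total in each library. Expected counts totalled 24596382, 54016971 and 43127749 in replicates 1, 2 and 3 of the first quantification. Estimated counts of the second quantification totalled 32127995, 57277114 and 47185726. Counts set side by side below are not scaled for these unlike totals. All 8 listed macrophage markers reached 1 TPM in every library, with a summed level of 13368 to 16661 TPM. The marker lists of B cells, T cells, NK cells, mast cells and basophils, dendritic cells and neutrophils summed to between 0.56 and 114 TPM. Replicate 2 stood apart in that mitochondrial protein-coding genes took 6.86% of its counts, against 1.06% in replicate 1 and 1.13% in replicate 3.

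In every library of the first quantification, 7 of the 9 members stood at 1 TPM or more. There, 6 stood at 100 TPM or more and 4 at 1000 TPM or more. The same levels were met by 42.9%, 4.04% and 0.281% of all protein-coding genes, the last of these being 62 genes. In replicate 1 of the second quantification, Ms4a6c, Ms4a6d and Ms4a7 were under 1000 TPM, at 998, 865 and 747 TPM. The members took 0.487%, 0.511% and 0.531% of the counts of replicates 1, 2 and 3. In summed TPM they held 5304, 6277 and 8142 in the second quantification, against 7453, 6467 and 8483 in the first quantification.

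Ms4a4c (ENSMUSG00000024675.19, chromosome 19, 11404770 to 11427246, plus strand), a member prominent in mouse monocytes, was the most abundant. It had 2059, 2199 and 3259 TPM in replicates 1, 2 and 3 of the second quantification, against 2982, 2488 and 3380 TPM in the first quantification. The first values averaged 2950 ± 447 TPM (SD, n = 3), rank 33 among all protein-coding genes. Replicate 3 was highest in both quantifications, and the 2 ranges overlapped.

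Ms4a6c (ENSMUSG00000079419.4, chromosome 19, 11469366 to 11482192, plus strand), also prominent in mouse monocytes, came next. Its level was 998, 1260 and 1588 TPM in the second quantification, against 1393, 1273 and 1625 TPM in the first quantification. The mean of the first was 1430 ± 179 TPM (SD, n = 3), rank 67.

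Ms4a6d (ENSMUSG00000024679.10, chromosome 19, 11586604 to 11604849, minus strand) has been described in mouse macrophages as a partner of the complement receptor Vsig4. It had 865, 1175 and 1220 TPM in the second quantification, against 1274, 1143 and 1373 TPM in the first quantification, where it averaged 1263 ± 115 TPM (SD, n = 3) and ranked 78. Ms4a7 (ENSMUSG00000024672.11, chromosome 19, 11321039 to 11336146, minus strand), the macrophage marker, had 747, 1008 and 1198 TPM in the second quantification, against 1078, 1012 and 1324 TPM in the first quantification. It averaged 1138 ± 164 TPM (SD, n = 3) in the first and ranked 90. For these genes and for Ms4a6c, replicate 1 was lowest in the second quantification and replicate 2 in the first, while replicate 3 was highest in both.

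Ms4a6b (ENSMUSG00000024677.13, chromosome 19, 11516512 to 11531256, plus strand), studied in mouse T cells, had 386, 482 and 577 TPM in the second quantification, against 433, 421 and 509 TPM in the first quantification (454 ± 47.7 TPM, SD, n = 3). Ms4a4a (ENSMUSG00000101389.1, chromosome 19, 11375523 to 11392790, plus strand), a macrophage surface protein reported beside the beta-glucan receptor dectin-1, had 235, 139 and 287 TPM in the second quantification, against 287, 125 and 266 TPM in the first quantification (226 ± 88.1 TPM, SD, n = 3). Replicate 2 was the low library for Ms4a4a in both quantifications. Without replicate 2 its mean in the first quantification was 276 TPM.

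Ms4a4b (ENSMUSG00000056290.16, chromosome 19, 11443553 to 11467055, plus strand), which alters T cell proliferation in mice, was scarce. It had 14.0, 12.8 and 11.9 TPM in the second quantification, against 5.85, 4.68 and 5.82 TPM in the first quantification. The 2 sets of values did not overlap.

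Ms4a4d (ENSMUSG00000024678.6, chromosome 19, 11536801 to 11558467, plus strand) had 0.658, 1.23 and 0.877 TPM in the second quantification, against 0.37, 0.48 and 0.31 TPM in the first quantification, where these values rested on 8, 26 and 12 counts. Ms4a1 (ENSMUSG00000024673.9, chromosome 19, 11249675 to 11266241, minus strand), which encodes CD20, had 3.76, 11.1 and 5.45 estimated counts in the second quantification, against 0, 7 and 0 expected counts in the first quantification. In the second quantification, the protein-coding transcript of Ms4a1 had 0, 8.06 and 0 estimated counts in replicates 1, 2 and 3. Transcripts annotated as retaining an intron held 100%, 27.3% and 100% of the gene's estimated counts. A count of 0 in the first quantification allows up to 0.0671 TPM for Ms4a1 in replicate 1 and 0.0367 TPM in replicate 3. These limits rest on 3 counts and cover counting error only. The second quantification gave 0.0493 TPM in replicate 1, and 0.0617 TPM in replicate 3, above the limit there. Among B cell markers, Cd79a and Blk had 0 counts in every library, while Cd79b had 1.59, 1.76 and 3.22 TPM and Cd22, which myeloid cells can also express, had 23.5, 42.9 and 39.7 TPM. The part of other cell types in the low members was not tested.

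**Figure D1:**
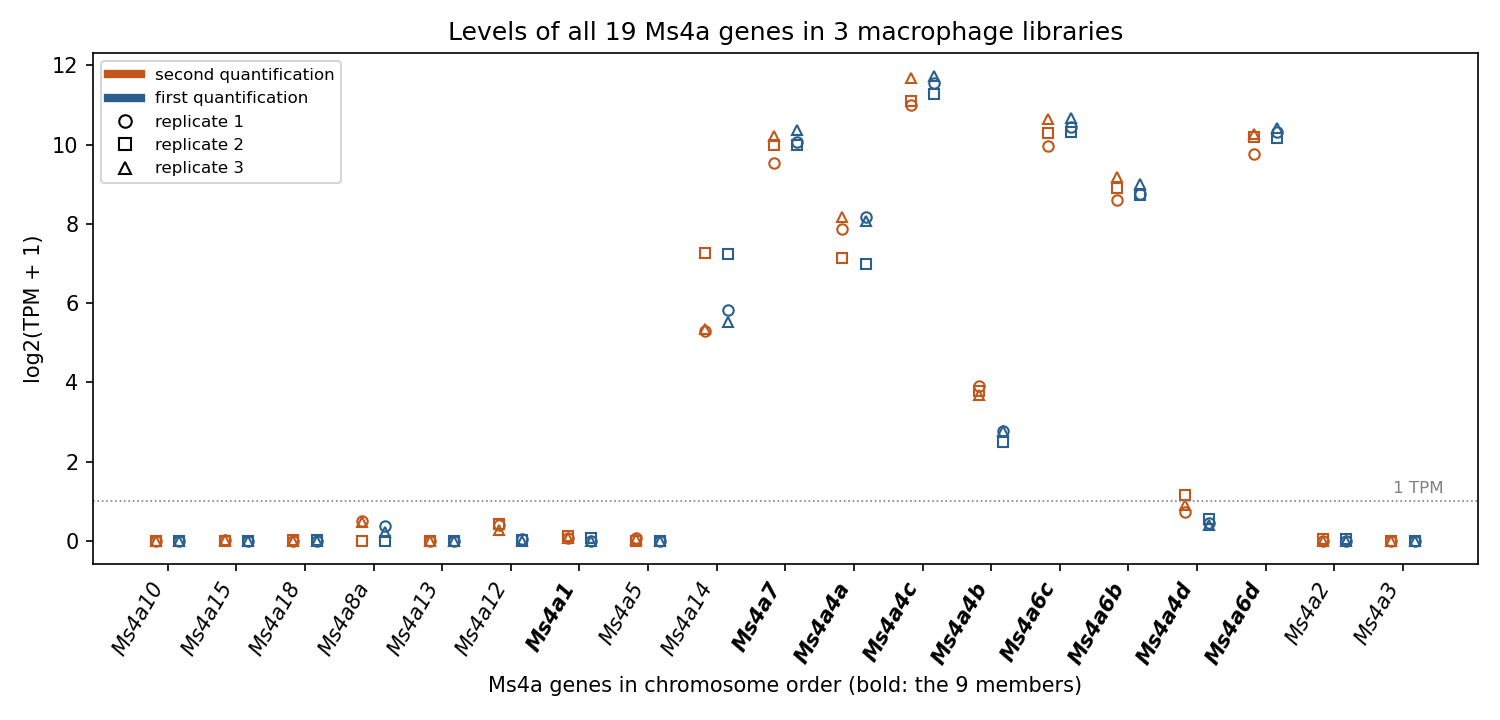
The plot gives log2(TPM + 1) of all 19 Ms4a genes in chromosome order, with the second quantification (orange) left of the first quantification (blue) and 1 symbol per replicate; the dotted line stands at 1 TPM. The 6 members at 100 TPM or more lie between Ms4a7 and Ms4a6d, with the scarce Ms4a4b and Ms4a4d among them, and Ms4a14 is the non-member above the line.

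In the order of the first quantification's means, each member exceeded the next in 3 of 3 libraries. The ranges of Ms4a6c and Ms4a6d overlapped, as did those of Ms4a6d and Ms4a7, though the order within each library was the same. Differences between neighbours within a library were not tested. The ranges of all other neighbours in the order were apart. The second quantification gave the same order and the same overlaps.

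The order depended on whether the level was taken per length. In CPM, counts scaled to library size without regard to length, Ms4a6c led with 1248, 1511 and 1358 CPM, and Ms4a4c followed with 1242, 1112 and 1246 CPM. Ms4a6c was above Ms4a4c in 3 of 3 libraries on that scale. Much of the TPM of Ms4a4c sat in a short annotated transcript, described below with the other isoforms. When transcripts shorter than 500 bases were left out, an alternative chosen after the values were seen, Ms4a4c had 1101, 810 and 1048 TPM. Its mean of 986 ± 155 TPM was then under those of Ms4a6c (1430 ± 179 TPM), Ms4a6d (1252 ± 123 TPM) and Ms4a7 (1138 ± 164 TPM; SD, n = 3 each). The ranges of Ms4a4c and Ms4a7 overlapped, and in replicate 1 Ms4a4c was the higher, at 1101 TPM against 1078 TPM.

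**Figure D2:**
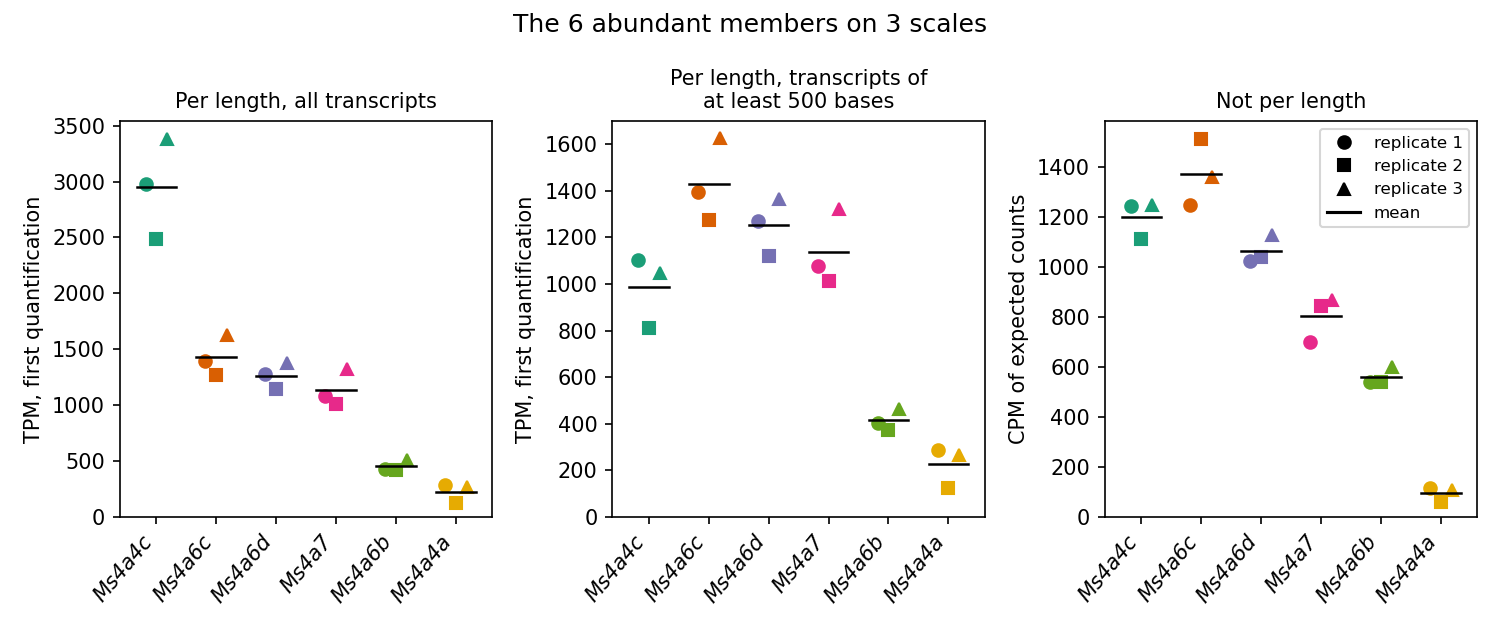
The panels give the 6 abundant members in TPM over all transcripts, in TPM over transcripts of at least 500 bases, and in CPM of expected counts, all from the first quantification, with 1 symbol per replicate and a line at the mean. Ms4a4c leads only in the left panel, and Ms4a6c leads in the other panels.

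The annotated transcripts of each member were described next. Ms4a4c-201, the full-length protein-coding transcript of 1723 bases and 7 exons, held 85.0% of the expected counts of its gene. Ms4a4c-203 is annotated as 361 bases with an incomplete 3' end, and its effective length (the number of places a fragment can start) was 118, 146 and 98.4 bases in replicates 1, 2 and 3. In TPM, Ms4a4c-203 held 63.4%, 64.2% and 73.2% of the gene in the second quantification, against 63.1%, 67.4% and 69.0% in the first quantification. The short transcript thus took most of the TPM on 12.4%, 16.9% and 13.4% of the first quantification's counts.

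Ms4a4b had 7 annotated transcripts, of which 5 were annotated as retaining an intron. Those 5 held 84.3% ± 2.30 of the gene's TPM in the second quantification and 82.0% ± 4.97 in the first quantification (SD, n = 3). The protein-coding Ms4a4b-201, with 4750 bases, had 1.85, 2.18 and 1.92 TPM in the second quantification, against 0.98, 0.84 and 0.80 TPM in the first quantification. Ms4a4b-207, a retained-intron transcript of 550 bases, held the largest mean share of TPM, 26.2% in the second quantification and 44.2% in the first. Ms4a4b-206, another retained-intron transcript, averaged 24.6% in the second and 26.8% in the first, and in replicate 1 it held more than Ms4a4b-207 in both, at 33.8% against 17.5% in the second and 36.5% against 31.6% in the first. By counts Ms4a4b-201 led, with 64.1% of the gene in the first quantification.

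Ms4a6c had 2 annotated transcripts, and their balance differed between libraries. Ms4a6c-202, a retained-intron transcript of 639 bases, held 27.2%, 7.01% and 41.4% of the gene's TPM in the second quantification, against 24.1%, 6.57% and 34.1% in the first quantification. Replicate 2 was lowest and replicate 3 highest in both. The protein-coding Ms4a6c-201 alone had 726, 1172 and 931 TPM in the second quantification, against 1057, 1189 and 1071 TPM in the first quantification.

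Ms4a7 divided its TPM between 2 protein-coding transcripts. Ms4a7-202, which has 6 exons, held 41.3%, 13.1% and 37.2% in the second quantification, against 35.4%, 15.1% and 35.5% in the first quantification. Ms4a7-203, which has 7 exons, held 55.7%, 84.8% and 60.1% in the second quantification, against 61.8%, 83.1% and 62.0% in the first quantification. As with Ms4a6c, replicate 2 leaned to the longer transcript in both quantifications. In the same library the annotated length of Ms4a6d-201 exceeded its effective length by 218 bases, against 257 bases in replicate 1 and 285 bases in replicate 3, so the fragments modelled for replicate 2 were shorter; the part of this in the isoform shares was not tested.

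Ms4a6b had 5 annotated transcripts, and its TPM was divided among several. The protein-coding Ms4a6b-201 held 52.1% of it in the second quantification and 59.6% in the first. Ms4a6b-205, also protein-coding, held 19.7% ± 1.68 in the second quantification and 28.0% ± 4.06 in the first quantification (SD, n = 3), where it took 39.9% of the counts. Retained-intron transcripts held 28.0% ± 4.86 of the gene's TPM in the second quantification and 12.5% ± 1.54 in the first quantification (SD, n = 3). The shortest of them, Ms4a6b-202 with 429 bases, had 99.6, 91.6 and 167 TPM in the second quantification, against 28.4, 46.3 and 45.8 TPM in the first quantification, and these values did not overlap. Ms4a6d-201 held 97.4% of its gene's TPM in the second quantification and 99.1% in the first. Ms4a4a and Ms4a4d had 1 annotated transcript each.

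**Figure D3:**
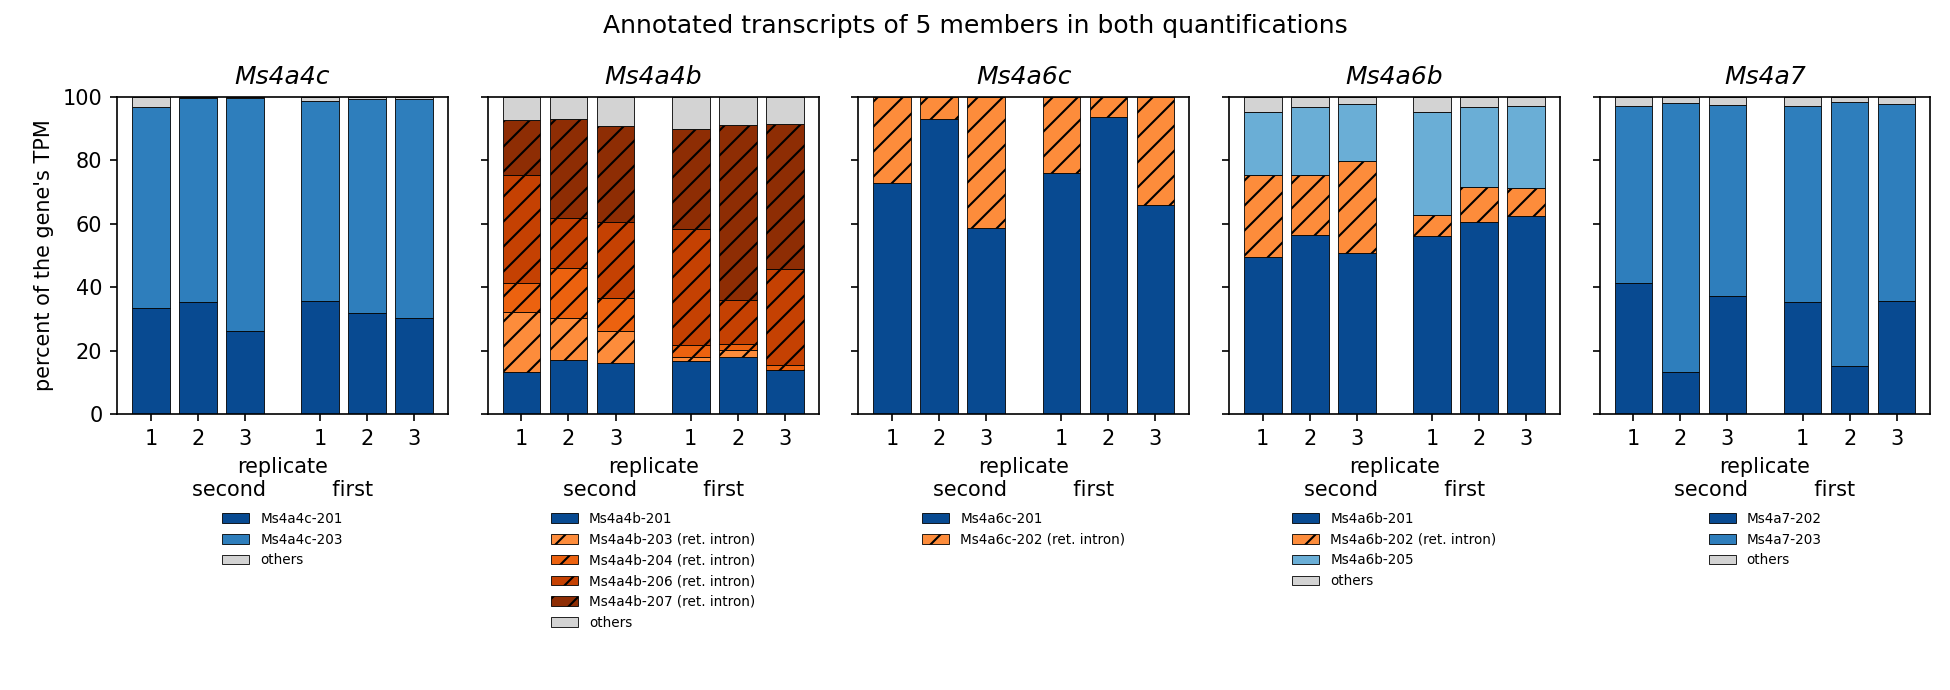
Stacked bars give the percent of each gene's TPM held by its annotated transcripts for 5 members, with replicates 1, 2 and 3 of the second quantification left of those of the first quantification; hatched orange marks retained-intron transcripts and grey the transcripts under 10% in both. Ms4a4c-203 exceeds Ms4a4c-201 in all 6 bars, retained-intron transcripts fill most of Ms4a4b, and replicate 2 has the smallest hatched part of Ms4a6c.

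Whether both quantifications gave the members the same level was tested within libraries, on the difference of log2(TPM + 1), the second minus the first. limma was fitted to the 10203 protein-coding genes that averaged 1 TPM or more in at least 1 quantification. A gene was called when its Benjamini-Hochberg adjusted p was under 0.05 and its mean difference was 1 or more in size. Of 7 members tested, 1 was called, Ms4a4b, against 1.66% of all genes (169), 1.26% called higher in the second and 0.392% called lower. Ms4a4b was higher in the second quantification by 1.11 on the log2 scale (SE 0.186, limma adjusted p = 1.40e-07), in 3 of 3 libraries. This SE and p, like the other limma values below, use a variance that limma draws toward that of all genes. They do not rest on the 3 libraries of this gene alone. In counts, Ms4a4b had 568, 905 and 624 estimated counts in the second quantification, against 121, 232 and 179 expected counts in the first quantification.

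The call of Ms4a4b depended on the library and on the filter. Without replicate 3 the difference was 1.21 with a limma adjusted p of 0.175, and without a filter on low values the adjusted p was 0.31, at which no gene of the table was called. Over all alternatives the limma adjusted p ran from 1.04e-31 to 0.31, and the difference was at least 1.03 in each. All genes together were lower in the second quantification by a median of 0.14, and by 0.42 in replicate 1. With each library's median difference subtracted, an alternative chosen after the data were seen, Ms4a4b differed by 1.26 (SE 0.105, limma adjusted p = 0.0152) and 0.99% of genes were called.

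The other 6 tested members were not called, and their differences lay on both sides of the median of all genes. They ran from -0.25 for Ms4a4c (SE 0.215) through -0.23 for Ms4a6d, -0.23 for Ms4a7, -0.18 for Ms4a6c and -0.01 for Ms4a4a to 0.07 for Ms4a6b (SE 0.216). The lowest limma adjusted p among them was 0.783. With each library's median difference subtracted, these members were again not called. Ms4a6b then differed by 0.22 (SE 0.0438, limma adjusted p = 0.0708) and Ms4a4a by 0.14 (SE 0.0403, limma adjusted p = 0.133). Ms4a4c, Ms4a6d, Ms4a7 and Ms4a6c ran from -0.10 to -0.02. Ms4a4d and Ms4a1, with means under 1 TPM in both quantifications, were not tested, and Ms4a4d had 26, 69 and 41 estimated counts in the second quantification, against 8, 26 and 12 expected counts in the first quantification.

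The 2 most alike pairs were set side by side within a library. Ms4a4b stood at 1.49%, 1.49% and 1.10% of the counts of Ms4a4c in the second quantification, against 0.397%, 0.386% and 0.333% in the first quantification. The scarce copy thus took a larger share of the pair in the second. Transcripts of Ms4a4b annotated as retaining an intron held 53.7%, 53.1% and 46.3% of its counts in the second quantification. In the first quantification they held 38.3%, 30.0% and 37.7%. Ms4a6b stood at 43.5%, 38.0% and 44.5% of the counts of Ms4a6c in the second quantification, against 43.1%, 35.7% and 44.2% in the first quantification, a difference of under 3 percentage points in each library. In TPM the same pair differed more between quantifications, with Ms4a6b at 38.6%, 38.2% and 36.3% of Ms4a6c in the second quantification, against 31.1%, 33.1% and 31.3% in the first quantification. How reads of the stretches shown above were divided between copies was not tested.

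**Figure D4:**
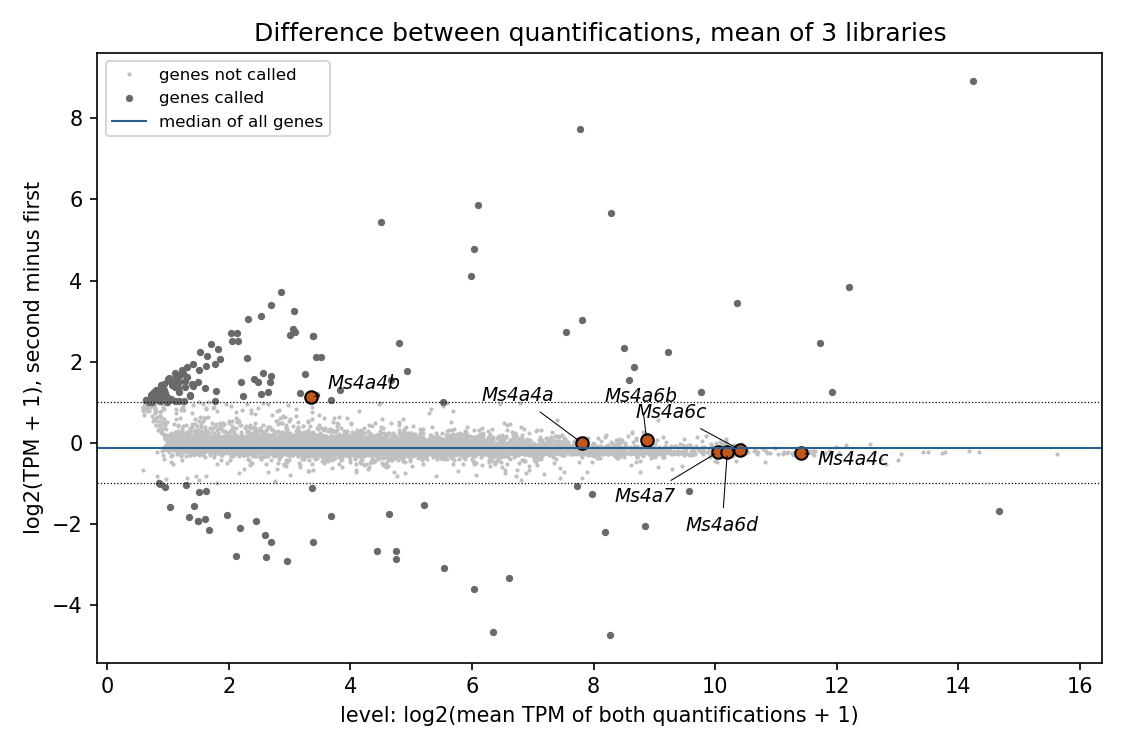
Each point is 1 of 10203 protein-coding genes, with its level on the horizontal axis, log2(mean TPM of both quantifications + 1), and the mean difference of log2(TPM + 1), the second minus the first, on the vertical axis; dotted lines mark differences of 1 and -1 and the blue line the median of all genes. Ms4a4b lies above the upper line at 1.11, and the other 6 tested members lie between -0.25 and 0.07.

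How far the members spread between libraries was measured next. In bulk RNA, fewer cells of a type and less RNA per cell cannot be told apart. Counts of 8 members passed edgeR's expression filter, and 7 of them differed between libraries by more than counting noise (chi-square test on TMM-scaled library sizes, adjusted p under 0.05), as did 87.9% of all 11932 genes kept. The exception was Ms4a4d, at an adjusted p of 0.0612. Ms4a4b passed at 0.0125 but not without replicate 3 (0.945) or with library totals in place of TMM (0.342). Without replicate 2 the calls of Ms4a6b (adjusted p = 0.771) and Ms4a6d (0.497) were lost, and calls over all genes fell to 6695, against 10491 with all libraries. Ms4a4d was called without replicate 1 (0.0332) and in the second quantification (0.0112). A count of 7 in 8 is near that background.

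Spread was also set against that of genes of like level. An F test of each gene's quasi-likelihood variance against edgeR's trend called 0 members and 0 genes (0%) at an adjusted p under 0.05, and at an unadjusted p under 0.05 it took 503 genes (4.22%) and 0 members. With DESeq2 size factors the counts of calls were also 0. The trend was fitted to these same genes and few libraries, so a lack of calls does not show that a gene was steady. The ratio of own variance to trend was 0.045 for Ms4a4c, 0.07 for Ms4a6b, 0.079 for Ms4a6d, 0.22 for Ms4a4b, 0.29 for Ms4a7 and 0.37 for Ms4a6c, against a median of 0.84 over all genes. For Ms4a4a and Ms4a4d it was 1.19 and 1.17.

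As a coefficient of variation of TPM over the 3 libraries of the first quantification, Ms4a6d spread by 9.13%, Ms4a6b by 10.5%, Ms4a6c by 12.5%, Ms4a7 by 14.4%, Ms4a4c by 15.1% and Ms4a4a by 39.0%. The median over 1255 protein-coding genes averaging 100 TPM or more was 30.1%. In the second quantification the spread was 17.8% for Ms4a6d, 19.9% for Ms4a6b, 23.1% for Ms4a6c and 23.0% for Ms4a7. It was 26.2% for Ms4a4c and 34.2% for Ms4a4a there, and no median over genes was taken. Deviations were taken in the first quantification. After each library's median deviation over detected genes was removed, Ms4a4a lay at 0.38, -0.56 and 0.19 from its mean on the log2 scale in replicates 1, 2 and 3. The other 5 abundant members stayed within 0.12 of their means. Ms4a4a thus deviated most of the abundant members, and most of all in replicate 2.

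**Figure D5:**
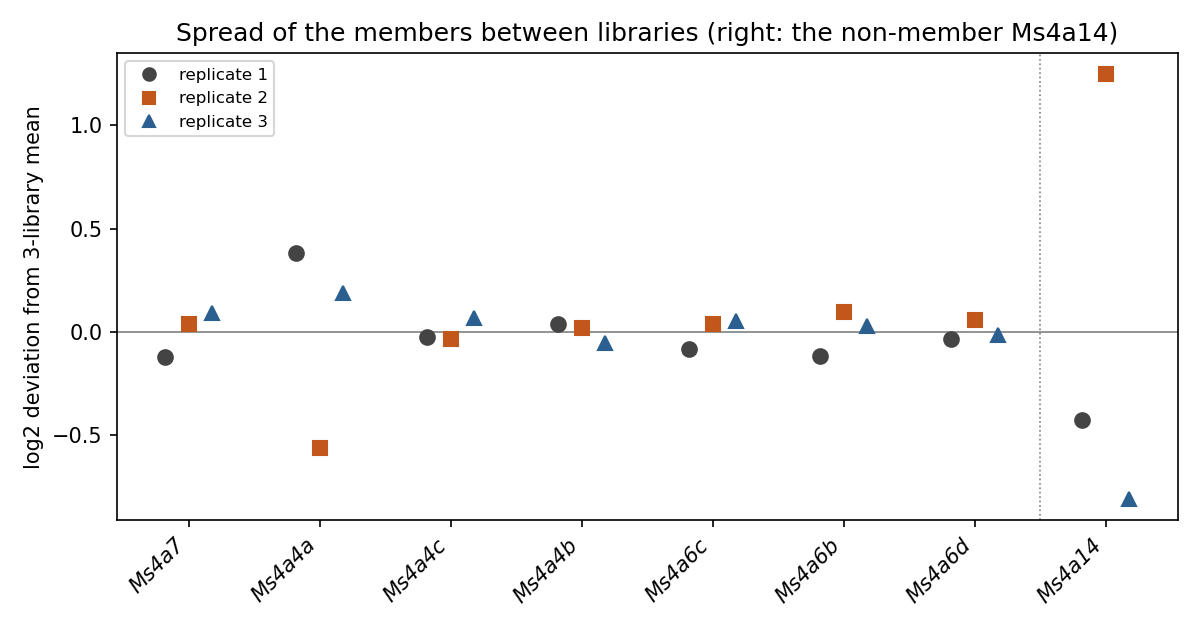
The points give log2(TPM + 1) minus the 3-library mean, less the library's median over detected genes, for 7 members in chromosome order and for the non-member Ms4a14 on the right, 1 symbol per replicate. Ms4a4a is low in replicate 2 (-0.56) and Ms4a14 high there (1.25), while the other 6 members lie within 0.12 of 0.

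Of the 10 Ms4a genes outside the set, Ms4a14 (ENSMUSG00000099398.1, chromosome 19, 11301249 to 11314454, minus strand), the neighbour of Ms4a7, was the one at 1 TPM or more. It had 38.3, 153 and 40.0 TPM in the second quantification, against 55.6, 151 and 45.1 TPM in the first quantification. Replicate 2 was high in both, and without it the mean of the first quantification was 50.3 TPM, against 83.8 TPM with it. Its variance was 9.91 times the edgeR trend (unadjusted p = 0.0223, adjusted p = 0.933), and its coefficient of variation of 69.5% was above that of 93.0% of genes averaging 100 TPM or more, a level that Ms4a14 itself did not reach. The mitochondrial share and Cd4 (113 TPM in replicate 2, 20.0 and 33.6 TPM in replicates 1 and 3) were also highest in that library; their part in the value of Ms4a14 was not tested.

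The remaining 9 Ms4a genes were at or near 0. Ms4a2, the beta chain of the IgE receptor, had 0, 4 and 0 estimated counts in the second quantification, against 0, 3 and 0 expected counts in the first quantification. Ms4a8a had 11, 0 and 12 in the second, against 4, 0 and 4 in the first. Ms4a12 had 15.6, 24.1 and 12.5 in the second, against 1, 1 and 0 in the first. The other 6, Ms4a10, Ms4a13, Ms4a15, Ms4a18, Ms4a3 and Ms4a5, had 0 or about 1 count in each library of either quantification.

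Between the outermost Ms4a genes lay 16 other annotated genes, of which 7 reached 1 TPM in some library of the first quantification. In the second quantification Gm28935 also did, at 1.33 TPM in replicate 1. The highest was AW112010 (chromosome 19, 11047612 to 11055808, minus strand), annotated as a lincRNA, with 1979, 709 and 2284 TPM in the second quantification, against 2890, 714 and 2493 TPM in the first quantification. It was low in replicate 2, as Ms4a4a was. BE692007 overlaps Ms4a6c on the opposite strand and had 28.3, 53.4 and 37.3 TPM in the second quantification, against 28.5, 44.3 and 28.6 TPM in the first quantification. Strandedness is not given in the sources used here, so reads of BE692007 and Ms4a6c may not be separable. Gm8369, a protein-coding gene between Ms4a6c and Ms4a6b, had 7.12, 10.7 and 7.29 TPM in the second quantification, against 5.98, 6.02 and 4.30 TPM in the first quantification. Gm28347, a lincRNA, had 12.6, 1.00 and 18.4 TPM in the second quantification, against 3.02, 0 and 4.14 TPM in the first quantification. The other 3 were low, with highest values of 1.33 TPM in the second and 2.04 TPM in the first for Gm6501, 1.38 and 1.99 TPM for Gm5511, and 1.49 and 1.24 TPM for Gm38275. The flanking protein-coding genes Zp1, Oosp1, Oosp2 and Oosp3 had 0 counts, and Ccdc86, a nucleolar protein gene, averaged 36.7 ± 8.71 TPM (SD, n = 3) in the first quantification.

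Promoter windows of RefSeq (GRCm38.p6, 250 bases before to 50 bases after a gene's start) were matched for 7 of the 9 members, with 2 windows for Ms4a7. The windows of Ms4a6c (chr19:11469118-11469417, plus strand) and Ms4a6b (chr19:11518309-11518608, plus strand) are shown because this pair shared the longest identical run, 48 bases. The run, in capitals, begins 49 bases before the start in Ms4a6c and 118 bases before it in Ms4a6b.
Ms4a6c: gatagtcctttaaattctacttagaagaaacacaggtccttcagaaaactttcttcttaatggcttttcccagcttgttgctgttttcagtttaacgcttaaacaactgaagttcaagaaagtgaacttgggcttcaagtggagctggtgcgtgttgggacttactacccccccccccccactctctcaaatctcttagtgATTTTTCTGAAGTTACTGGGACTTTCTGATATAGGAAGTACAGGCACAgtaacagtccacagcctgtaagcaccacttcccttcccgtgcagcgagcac
Ms4a6b: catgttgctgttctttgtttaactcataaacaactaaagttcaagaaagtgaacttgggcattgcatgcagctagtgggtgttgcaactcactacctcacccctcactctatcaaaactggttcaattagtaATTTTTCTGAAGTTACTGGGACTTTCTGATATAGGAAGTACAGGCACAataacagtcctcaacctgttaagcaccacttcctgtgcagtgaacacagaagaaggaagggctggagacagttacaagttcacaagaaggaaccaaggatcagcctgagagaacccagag

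Ms4a4c (chr19:11407411-11407710, plus strand) and Ms4a4b (chr19:11443308-11443607, plus strand) shared a run of 20 bases, in capitals below, and are shown because they hold the longest identical coding stretch above and differ widely in level.
Ms4a4c: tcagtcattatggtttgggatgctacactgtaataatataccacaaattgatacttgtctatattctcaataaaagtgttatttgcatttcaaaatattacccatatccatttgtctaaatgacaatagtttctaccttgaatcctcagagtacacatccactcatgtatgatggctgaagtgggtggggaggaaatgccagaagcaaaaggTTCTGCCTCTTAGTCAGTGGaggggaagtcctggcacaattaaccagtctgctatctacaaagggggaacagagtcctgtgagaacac
Ms4a4b: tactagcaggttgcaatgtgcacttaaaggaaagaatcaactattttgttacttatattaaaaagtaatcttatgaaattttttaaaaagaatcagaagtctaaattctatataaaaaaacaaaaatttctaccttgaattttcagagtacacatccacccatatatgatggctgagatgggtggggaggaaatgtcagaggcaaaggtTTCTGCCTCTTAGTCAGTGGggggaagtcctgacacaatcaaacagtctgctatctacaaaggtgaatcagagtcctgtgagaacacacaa

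Of 27 pairs of windows from different members, 3 shared a run of at least 12 bases. Motifs were searched on both strands of the windows. The interferon-stimulated response element, a pair of spaced GAAA blocks, was in no member window and in 3.44% of 32851 windows of all genes. The STAT site TTCNNNGAA and the PU.1 site GAGGAAGT were also in none of the member windows, against 8.30% and 3.20% of all windows. A degenerate NF-kB site was in the window of Ms4a4a, against 4.79% of all windows, and the AP-1 site TGANTCA was in the window of Ms4a4b and in 1 window of Ms4a7, against 7.81% of all windows. A match or its lack says only which letters stand in these windows.

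Genes whose products are related to or reported beside MS4A proteins were taken from a list of 10. Fcer1g, the shared signalling chain of Fc receptors, averaged 3474 ± 556 TPM in the second quantification and 3999 ± 468 TPM in the first quantification (SD, n = 3 each). Fcer1a, the IgE-binding chain, had 0 counts in each library, and Tnfrsf18, which encodes GITR, a partner of Ms4a4b and Ms4a6b in T cells, had 2, 4 and 0 expected counts. GITR and the IgE-binding chain were thus at or near 0 in libraries where Ms4a6b was abundant.

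Clec7a, which encodes dectin-1, had 14.7, 62.8 and 56.1 TPM in the second quantification, against 20.99, 62.3 and 60.9 TPM in the first quantification. Trem2, a lipid receptor of macrophages, had 106, 41.4 and 271 TPM in the second quantification, against 151, 39.4 and 290 TPM in the first quantification. Its adaptor Tyrobp averaged 1359 ± 835 TPM in the second quantification and 1611 ± 926 TPM in the first quantification (SD, n = 3 each). Trem2 and Tyrobp were lowest in replicate 2 and highest in replicate 3. The CD20-like relatives Tmem176a and Tmem176b averaged 64.0 ± 37.8 and 125 ± 51.2 TPM, the integrin chain Itgam 134 ± 27.5 TPM and the scavenger receptor Cd36 50.9 ± 32.6 TPM in the first quantification (SD, n = 3 each).

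The pattern of each abundant member over the 3 libraries was compared with 6271 protein-coding genes of at least 10 TPM by the Euclidean distance of centred log2(TPM + 1) values, a description in which 3 libraries leave many genes nearly alike. Nearest to Ms4a4a were the secreted phosphoprotein Spp1 (distance 0.0014), Grina (0.0044) and the tryptophan tRNA ligase Wars (0.0088). Nearest to Ms4a4c were Adam8, Tmed10 and Retreg1, and to Ms4a6c Arl1, Fnta and 4833439L19Rik. Nearest to Ms4a6b were Tmem65, Nudt4 and the interferon signalling factor Irf9 (0.01), to Ms4a6d Mpv17l2, Ppp3ca and Sft2d2, and to Ms4a7 Rfesd, Acat1 and Gtf2h2. Among the members, Ms4a7 and Ms4a6c were closest at 0.051, and Ms4a4a lay 0.67 to 0.84 from each of the other 5.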

How the data were processed

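Polyadenylated RNA of 3 macrophage libraries was analysed as 1 group, with no contrast between conditions. Per the notes deposited with the files, both quantifications used mm10 and annotation release M21; no source used here names the tools, their versions or the strandedness. The authors' first tables give expected counts, TPM and FPKM, and in transcript tables each transcript's percent of its gene, per the file headers. The authors' second tables give estimated counts and TPM, per the file headers. The authors' TPM divides counts by effective length and scales them to a fixed sum per library, and their FPKM is proportional to it. A model shared reads among transcripts in both, which can move levels between close copies. Entries other than annotated genes took 0.0875%, 0.0464% and 0.0636% of expected counts and were left out. The second tables were summed to genes, and 86 genes had no transcript there.

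Expected counts were rounded for count tests (edgeR 4.0.16, limma 3.58.1, DESeq2 1.42.0 for size factors, R 4.3.3). The code was tested on simulated data. limma used a pseudocount of 1 and a trended prior. CPM are of annotated counts. Shared words were counted over M21 transcript sequences. The members, lists, motifs and named genes were chosen with earlier results of these data known; named genes were all Ms4a genes, genes within the cluster and 3 on each side, listed partners, transcripts of at least 10% of a member, and the 3 nearest patterns. Replicate numbers pair nothing. Leave-one-out, pseudocounts, filters, scaling and the other quantification were tried as alternatives.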

Additional observations from a re-analysis of the deposited data

How the results depend on the processing

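The count of 7 members at 1 TPM in every library stayed at 7 at 0.5 TPM, in the second quantification, in CPM, over transcripts of at least 500 bases and without any replicate, and was 6 at 5 TPM. It includes Ms4a4b, whose shortest annotated transcript has 550 bases, so the 500-base setting left out none of its transcripts. The protein-coding Ms4a4b-201 alone had 1.85, 2.18 and 1.92 TPM in the second quantification, against 0.98, 0.84 and 0.80 TPM in the first quantification. The comparison of quantifications called 0 members and 0 genes without a filter on low values, where the cause was not tested; with library medians subtracted it called 101 genes. Leaving out replicates gave 0 to 1 called members (0 without replicate 3). For spread beyond counting noise, leaving out replicates gave 5 to 8 members and 6695 to 9696 genes. Variance above the trend was called for 64 genes without a filter and for 7 to 20 with a replicate left out, none a member, where the causes were not tested. Of the mean levels, 4 moved by more than 1 SD in the second quantification (0.0682 TPM for Ms4a1, 12.9 for Ms4a4b, 0.922 for Ms4a4d, 1087 for Ms4a6d) and 1 over transcripts of at least 500 bases (986 for Ms4a4c). No paired analysis was possible because the libraries form 1 group and no groups share replicate numbers; quantifications were compared within libraries. Depth limits Ms4a1 and Ms4a4d, which rest on at most 26 counts in a library of the first quantification.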

Other observations

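Some markers of other cell types reached 1 TPM, and the levels of their lists varied. Cd4, which T cells and some myeloid cells carry, had 20.0, 113 and 33.6 TPM in replicates 1, 2 and 3. Of the other T cell markers, Cd3e and Cd3g had 0, 10 and 0 expected counts each, Trac had 0, 8 and 0, and Lck had 8, 7 and 22. Hdc, a histidine decarboxylase listed here with mast cells and basophils, had 29.4, 6.39 and 22.2 TPM. On the same list Kit had 16, 20 and 53 counts, and Fcer1a and Tpsb2 had 0 in each library. Klrk1, a receptor listed here with NK cells, had 8.53, 9.26 and 7.37 TPM, with Ncr1 at 0, 7 and 3 counts and Nkg7 at 0 in each library. The neutrophil proteins S100a8 and S100a9 had 6.91 and 9.64 TPM in replicate 2, against 1.27 to 2.61 TPM in the other libraries. No dendritic cell marker reached 1 TPM. The part of such cells in the levels of the Ms4a genes was not tested.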
